A study of Mus musculus with 36 samples.

Results

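Neuropeptides are made as larger precursors in the cell body, cut and amidated in the secretory pathway, stored in dense-core vesicles and released beside the classical transmitter. The 10 genes described here are the precursor genes Calca and Calcb (calcitonin gene-related peptide), Tac1 (substance P and neurokinin A), Penk and Pdyn (enkephalins and dynorphins), Npy, Sst, Gal, Vip and Cck. They were taken by gene symbol from the deposited expression table, in which each has a single entry, and are 10 of its 18845 genes. Calcitonin gene-related peptide is the peptide most tied to motor neurons, which release it at the neuromuscular junction, while enkephalin, dynorphin, somatostatin, neuropeptide Y and cholecystokinin are known as peptides of spinal interneurons. Galanin and vasoactive intestinal peptide are known for their rise in injured neurons.

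The study, on protein synthesis at the neuromuscular synapse, purified RNA through an HA tag on Rpl22 (RiboTag) from mouse tissue. All mice carried the Ribo-tag allele, and Cre-positive mice also carried ChAT-Cre, which acts in cells that make or have made choline acetyltransferase. The groups were synapse-enriched diaphragm muscle of Ribo-tag mice (Cre-negative), the same tissue of ChAT-Cre;Ribo-tag mice (Cre-positive), and spinal cord of ChAT-Cre;Ribo-tag mice. The 4 ages, E15.5 (embryonic), P0.5 and P10 (postnatal) and adult (2 months), make 12 groups of 3 libraries, 36 in all. No Cre-negative spinal cord library is among the samples, so purified and carried-over RNA cannot be told apart there. Nothing in the labels ties a replicate to an animal of its own, so p-values measure the spread between these libraries, which may be technical. Strain and sex are not given in the sources used here.

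CPM, the unit of all levels below, are reads per 1000000 (M) reads that the table counts in a library. Depth ranged from 68.2 to 107 M reads over 24 diaphragm libraries and from 63.7 to 71.8 M over 12 spinal cord libraries. At that depth 3 reads are 0.042 to 0.047 CPM in spinal cord and 0.028 to 0.044 CPM in diaphragm. In each group 1 library, here called intermediate, stood within 1.77 to 2.98 times the counting error of a positively weighted sum of the other 2. It was replicate 3 in 9 of the 12 groups, and tests were repeated without it, which leaves the pair of libraries furthest apart. Chat had 0 reads in the Cre-negative libraries and at most 14 reads in any Cre-positive diaphragm library (E15.5 replicate 1). Its spinal cord means were 15.9 ± 0.261, 11.5 ± 1.2, 64.9 ± 8.5 and 64.6 ± 3.09 CPM from E15.5 to adult (SD, n = 3). Slc18a3, of the same marker list, went another way, at 233 ± 25.2, 253.5 ± 20.6, 152 ± 9.25 and 170 ± 3.22 CPM. At E15.5 Slc18a3 had 2, 123 and 30 reads in Cre-positive diaphragm and 0 in the Cre-negative libraries. The motor neuron and cholinergic list (10 of 10 genes in the table) summed to 1620 to 2611 CPM in spinal cord libraries. In diaphragm libraries it summed to 4.32 to 146 CPM. Its mean sums in Cre-positive diaphragm were 70.8 (E15.5), 17.9 (P0.5), 14.4 (P10) and 4.90 CPM (adult). In Cre-negative diaphragm they were 74.3, 85.5, 9.5 and 15.4 CPM. Cre-positive sums were lower without overlap for P0.5 and adult libraries, those of E15.5 and P10 overlapped, and no test was run.

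Promoters are shown for Npy, Sst and Tac1, whose spinal cord means had the largest folds between ages (33.8, 8.08 and 7.80) and were lowest in the adult, and for Cck, which had the largest rise (5.07-fold from its lowest to its highest mean). RefSeq start sites (GRCm38.p6) were matched for 8 of the 10 genes, all except Calcb and Penk, and the 250 bases before each start were searched on both strands for TGACG, a core of cyclic AMP response elements, and for the full palindrome TGACGTCA, which contains TGACG on both strands. Capitals mark TGACG, its reverse complement CGTCA, or the palindrome in windows printed 5′ to 3′ along the gene. The Sst window is chr16:23890845-23891094 (minus strand), inside the annotated span of the gene, which runs from 23889573 to 23891342. The Tac1 window is chr6:7554811-7555060 (plus strand), the Npy window chr6:49822460-49822709 (plus strand) and the Cck window chr9:121495695-121495944 (minus strand).
Sst: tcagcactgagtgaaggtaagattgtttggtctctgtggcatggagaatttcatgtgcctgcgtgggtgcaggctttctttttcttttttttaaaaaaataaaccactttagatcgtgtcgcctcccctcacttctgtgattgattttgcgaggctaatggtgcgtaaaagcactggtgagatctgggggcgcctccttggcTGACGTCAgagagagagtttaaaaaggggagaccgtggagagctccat
Tac1: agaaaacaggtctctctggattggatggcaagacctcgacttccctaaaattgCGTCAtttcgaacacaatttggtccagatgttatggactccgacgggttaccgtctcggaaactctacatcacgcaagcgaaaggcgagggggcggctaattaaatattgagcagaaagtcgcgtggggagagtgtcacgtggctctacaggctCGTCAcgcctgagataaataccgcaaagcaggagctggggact
Npy: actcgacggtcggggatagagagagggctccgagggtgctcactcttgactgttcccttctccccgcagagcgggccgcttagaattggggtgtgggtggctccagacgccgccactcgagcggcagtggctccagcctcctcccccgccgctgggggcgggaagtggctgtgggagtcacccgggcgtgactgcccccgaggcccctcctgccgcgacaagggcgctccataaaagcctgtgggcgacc
Cck: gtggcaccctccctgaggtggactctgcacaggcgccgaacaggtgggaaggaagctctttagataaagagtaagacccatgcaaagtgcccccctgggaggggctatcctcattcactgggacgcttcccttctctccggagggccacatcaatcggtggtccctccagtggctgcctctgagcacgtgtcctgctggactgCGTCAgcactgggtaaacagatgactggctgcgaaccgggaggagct
The palindrome was in 1 of the 8 matched genes, Sst, at bases 203 to 210 of its window, against 1.77% of 27025 genes with a RefSeq window. TGACG was in 5 of the 8 (Calca, Tac1, Sst, Vip and Cck) against 19.8% of genes, and Tac1 held it at bases 54 to 58 and 208 to 212. Npy, Pdyn and Gal held neither in these windows. TATAAA was found in 1 of the 8, Vip, against 14.3% of genes. Of the genes shown, TGACG was in the windows of Sst and Tac1, with their lowest means in the adult, and of Cck, with its lowest at E15.5. It was not in that of Npy, also lowest in the adult. A link between TGACG and level was not tested.

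In spinal cord every one of the 10 genes had reads in all 12 libraries, and most changed level with age. Npy and Sst were high before and at birth and fell after it, and Tac1 and Pdyn reached their lowest mean in the adult. Cck rose around birth with no later difference past the threshold in limma. Calca and Calcb had 447 CPM or more in every library, and both were above their P10 level in the adult. Summed over the 10 genes, the mean at E15.5 was 3052 ± 298 CPM, against 4016 ± 91.7 for P0.5, 2536 ± 20.3 for P10 and 2581 ± 97.6 for the adult (SD, n = 3). In bulk RNA, fewer cells of a type and less RNA per cell cannot be told apart.

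**Figure D1:**
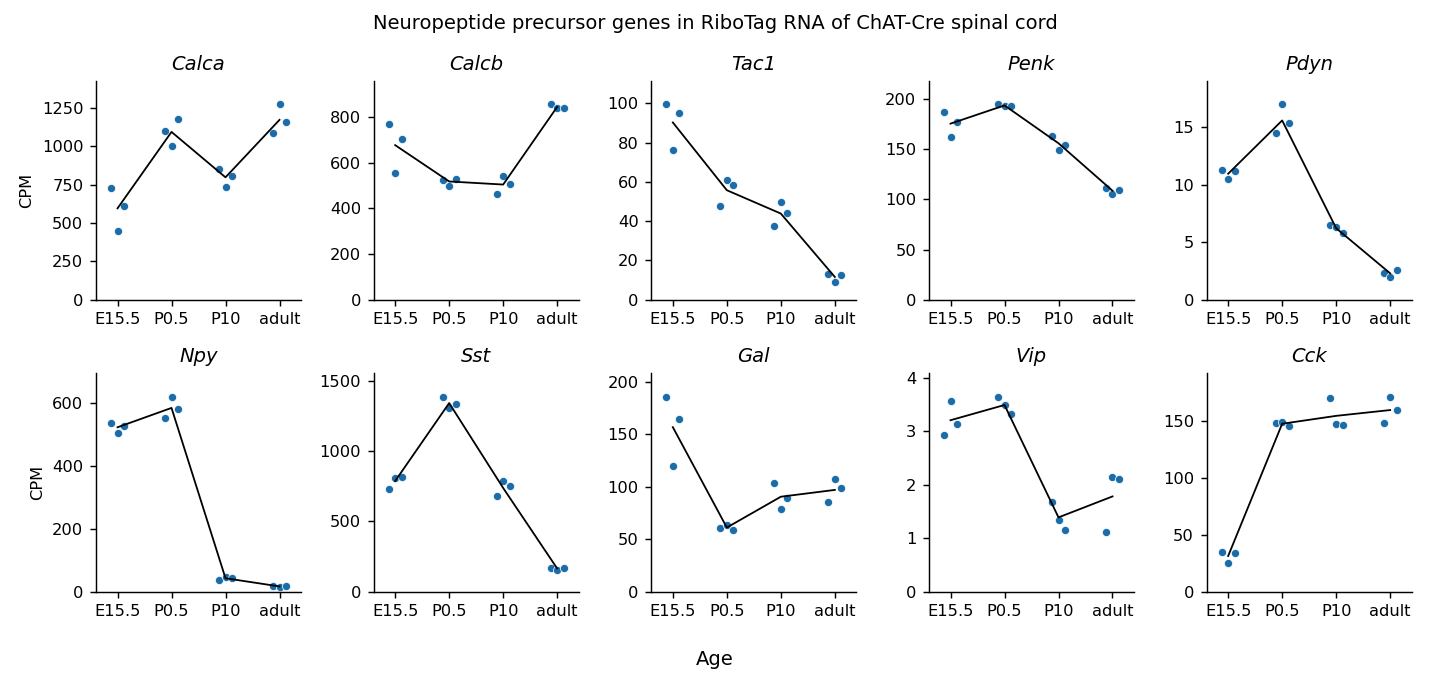
CPM of the 10 precursor genes in spinal cord by age, 1 panel per gene with its own linear axis from 0; points are the 3 libraries of an age and lines join the means. Npy drops from 586 to 43.4 CPM between P0.5 and P10, Sst from 738 to 166 CPM between P10 and adult, and Cck climbs from 31.5 to 147 CPM between E15.5 and P0.5.

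Calca, which encodes calcitonin and alpha-CGRP (GRCm38.p6 chr7:114625981-114636910), had 727, 447 and 613 CPM at E15.5, 1099, 1004 and 1181 at P0.5, 850, 737 and 808 at P10, with 1088, 1274 and 1158 for the adult (replicates 1 to 3). P0.5 and adult libraries overlapped and were the highest, and P10 overlapped with neither of them. It rose by 0.90 ± 0.15 (log2 difference of CPM + 1 ± SE) from E15.5 to P0.5 (limma adjusted p = 2.1e-04), fell by 0.45 to P10 (limma adjusted p = 0.015) and rose by 0.55 to the adult (limma adjusted p = 0.0064). Without the intermediate libraries the first step kept its call (limma adjusted p = 0.014), and the other 2 steps did not (limma adjusted p = 0.15 and 0.075).

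Calcb encodes beta-CGRP, nearly the same peptide, and lies near Calca at chr7:114716555-114723368. It had 770, 554 and 705 CPM at E15.5, 523, 500 and 530 at P0.5, 463, 543 and 506 at P10, with 855, 840 and 837 for the adult. The adult libraries stood above those of the other ages, and P0.5 and P10 overlapped. Calcb fell by 0.37 from E15.5 to P0.5 (limma adjusted p = 0.0026, and 0.056 with RLE size factors, where the difference was -0.22), differed by -0.04 to P10 (limma adjusted p = 0.70) and rose by 0.75 ± 0.09 to the adult (limma adjusted p = 8.1e-06, and 7.0e-04 without the intermediate libraries). The ratio of Calca to Calcb reads went from 0.873 ± 0.069 at E15.5 to 2.11 ± 0.110 at P0.5, 1.60 ± 0.241 at P10 and 1.39 ± 0.122 in the adult (SD, n = 3), the lowest ratio being that of E15.5. These are paralogs with similar sequence, so how reads were split between them is uncertain.

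Npy, the precursor of neuropeptide Y, showed the largest change of the 10 genes between neighbouring ages. It had 537, 506 and 529 CPM at E15.5, 555, 622 and 581 at P0.5, 38.1, 47.9 and 44.1 at P10, with 17.5, 16.2 and 18.2 for the adult. No P10 library came near the E15.5 and P0.5 libraries, and the adult libraries were lower again. From P0.5 to P10 Npy fell by 3.73 ± 0.08 (13.5-fold, limma adjusted p = 6.1e-15) and to the adult by a further 1.27 (2.50-fold, limma adjusted p = 1.5e-09). From E15.5 to P0.5 the difference was 0.16 (limma adjusted p = 0.073), and 0.32 with RLE size factors (limma adjusted p = 0.0036).

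Sst, the precursor of somatostatin, followed a similar course with a later fall. It had 731, 812 and 819 CPM at E15.5, 1386, 1304 and 1332 at P0.5, 679, 784 and 750 at P10, with 171, 158 and 169 for the adult. P0.5 was highest and the adult lowest without overlap, while E15.5 and P10 overlapped. Sst rose by 0.77 ± 0.06 to P0.5 (limma adjusted p = 3.8e-08), fell by 0.86 to P10 (limma adjusted p = 4.4e-09) and fell by 2.14 to the adult (4.44-fold, limma adjusted p = 1.9e-12).

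Tac1, the precursor of substance P and neurokinin A, had 99.4, 76.0 and 95.2 CPM at E15.5, 47.8, 60.9 and 58.4 at P0.5, 37.5, 49.9 and 44.1 at P10, with 13, 9.15 and 12.6 for the adult. P0.5 and P10 libraries overlapped, and the adult libraries were below all others. Tac1 fell by 0.68 to P0.5 (limma adjusted p = 0.0013), differed by -0.34 to P10 (limma adjusted p = 0.053) and fell by 1.84 to the adult (3.79-fold, limma adjusted p = 3.9e-07).

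Penk and Pdyn encode the opioid precursors. Penk, the proenkephalin gene, had 187, 163 and 177 CPM at E15.5, 195, 193 and 194 at P0.5, 164, 150 and 155 at P10, with 111, 105 and 110 for the adult. E15.5 and P10 overlapped in 1 library each, and the highest mean was 1.78 times the lowest. Penk fell by 0.31 to P10 (limma adjusted p = 1.6e-04) and by 0.52 to the adult (limma adjusted p = 1.6e-06), and its rise of 0.14 at birth (limma adjusted p = 0.038) was lost without the intermediate libraries (limma adjusted p = 0.24) and in 5 of the 6 fits that left out 1 library.

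Pdyn, the prodynorphin gene, had 11.3, 10.5 and 11.2 CPM at E15.5, 14.5, 17.0 and 15.3 at P0.5, 6.53, 6.33 and 5.79 at P10, with 2.29, 1.98 and 2.61 for the adult. No 2 ages overlapped. Pdyn rose by 0.47 (limma adjusted p = 1.5e-04), then fell by 1.2 (2.51-fold, limma adjusted p = 3.4e-09) and by 1.14 (2.71-fold, limma adjusted p = 1.8e-08).

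Cck, the cholecystokinin precursor, had 34.6, 25.4 and 34.3 CPM at E15.5 and 148, 149 and 145 at P0.5. It had 170, 147 and 146 CPM at P10 and 148, 171 and 159 in the adult, so the 3 postnatal ages overlapped. Cck rose by 2.21 ± 0.10 at birth (4.69-fold, limma adjusted p = 1.8e-10, and 4.9e-08 without the intermediate libraries). The later differences were 0.06 and 0.05 (limma adjusted p = 0.58 and 0.69).

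Gal, the galanin precursor, was the only one of the 10 whose lowest mean was at P0.5. It had 186, 120 and 164 CPM at E15.5, 60.8, 64.2 and 58.9 at P0.5, 104, 79.0 and 89.4 at P10, with 85.4, 107 and 98.8 for the adult. E15.5 was highest, P0.5 lowest, and P10 and adult overlapped. Gal fell by 1.32 ± 0.15 (2.56-fold, limma adjusted p = 6.6e-06) and rose by 0.55 to P10 (limma adjusted p = 0.0046, and 0.072 without the intermediate libraries).

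Vip, the precursor of vasoactive intestinal peptide, had at most 3.65 CPM in any spinal cord library. Its values were 2.93, 3.56 and 3.13 CPM at E15.5, 3.65, 3.5 and 3.33 at P0.5, 1.68, 1.34 and 1.15 at P10, with 1.11, 2.14 and 2.10 for the adult. The 2 later ages overlapped and lay below the 2 earlier ones. Vip fell by 0.91 between P0.5 and P10 (limma adjusted p = 1.3e-05, and 6.2e-04 without the intermediate libraries).

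Counted together, 5 of the 10 genes rose and 3 fell from E15.5 to P0.5, against 72.3% of 13373 tested genes called in either direction (27.9% higher and 44.4% lower). From P0.5 to P10, 1 rose and 6 fell, against 78.7% called (35.2% higher and 43.5% lower). From P10 to adult, 2 rose and 5 fell, against 67.9% called (23.6% higher and 44.3% lower). Without the intermediate libraries the members called were 4 higher and 3 lower, 0 higher and 5 lower, and 1 higher and 5 lower, against 56.6%, 66.7% and 48.8% of genes; at an unadjusted p under 0.05, limma then had 6 members in the middle step. In spinal cord the calls lost were those of Calca in the later 2 steps, Penk in the first and Gal in the second. The share of members called is near the share of all genes at each step, so the count is no result about these genes. With RLE size factors the all-gene median went from -0.13, -0.08 and -0.16 to 0.00 at each step and the share of higher among called genes from 38.6%, 44.7% and 34.7% to 50.2%, 50.0% and 51.2%.

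**Figure D2:**
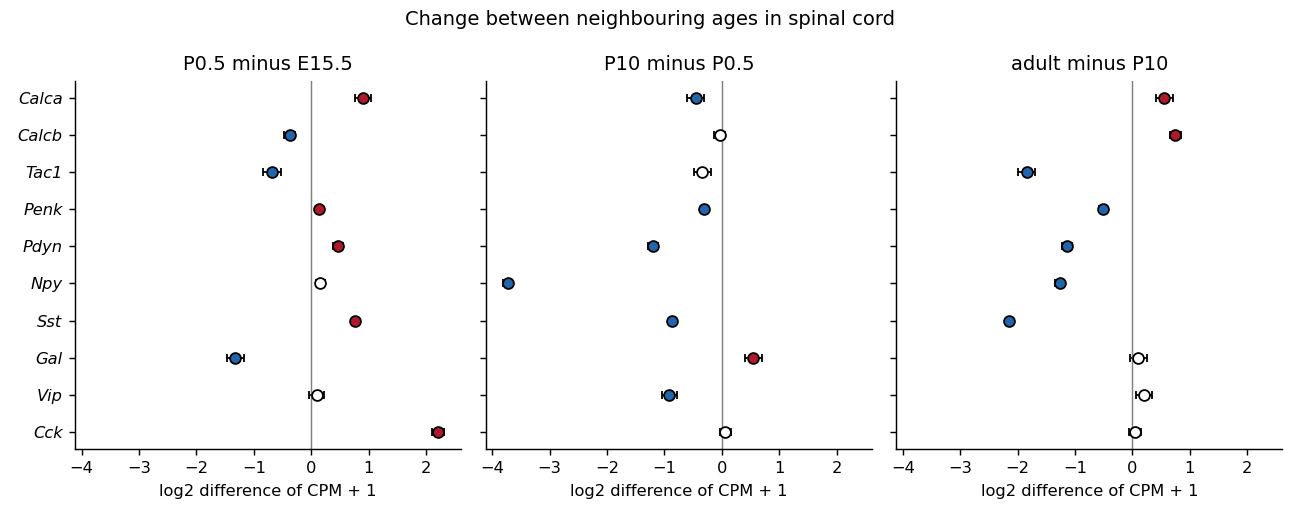
Difference between neighbouring ages of spinal cord for the 10 genes on the log2(CPM + 1) scale, with the standard error from limma as bars; red points rose, blue points fell and white points were not past an adjusted p of 0.05. Npy at -3.73 from P0.5 to P10, Cck at 2.21 from E15.5 to P0.5 and Sst at -2.14 from P10 to adult lie furthest from 0.

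Profiles over the 12 spinal cord libraries were set against each other as a description; the libraries share tissue and ages, and an intermediate library is close to a mix of the other 2 of its group. Pearson's r of log2(CPM + 1) was 0.98 between Penk and Pdyn, 0.97 between Penk and Sst, and 0.95 between Pdyn and Npy. Calca and Calcb had an r of 0.23, while Calca and Cck had 0.82, Gal and Cck -0.73 and Calcb and Sst -0.81. The most similar profiles among 10256 genes were Hes6 (r = 0.999), Dpysl5 and Dlk2 for Npy, Gsto1 (0.997), Cyb5a and Slc25a23 for Sst, and Mblac2 (0.992), Cmtm3 and Rgs10 for Tac1. Hes6, a transcription factor of differentiating neurons, had 80.5, 82.5, 22.6 and 13.7 CPM over the 4 ages, and Dpysl5, a protein of growing axons, had 59.8, 71.8, 9.33 and 4.70 CPM. For Penk they were Ap2m1 (0.995), Zfp41 and Traf4, and for Pdyn Wdr6 (0.996), Hmgb2 and Dpysl4. For Cck they were Gm14326 (0.994), Mrps26 and Polr2g, for Gal 1700037H04Rik (0.974), for Calca Polr2e (0.974), Ube2j1 and Ndrg4, and for Calcb Lrrc51 (0.983), Sdhaf2 and Tmem50a.

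The other precursor genes moved in both directions at each step. Of 32 genes on that list 23 were tested, and from E15.5 to P0.5 14 rose and 2 fell (median 0.39, against -0.13 for all genes; 11 and 1 without the intermediate libraries). Of all tested genes 27.9% rose and 44.4% fell at this step. Uts2, which encodes urotensin-2, a peptide known in motor neurons, rose from 73.9 ± 7.44 to 551 ± 52.0 CPM (log2 difference 2.88, limma adjusted p = 3.0e-12). Tac2 (neurokinin B) went from 1.78 ± 0.354 to 8.10 ± 0.166 CPM and Crh (corticotropin-releasing hormone) from 6.91 ± 0.930 to 25.5 ± 7.5 CPM, while Nts (neurotensin) fell from 75.6 ± 4.45 to 50.7 ± 5.36 CPM.

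From P0.5 to P10, 5 of the 23 rose and 15 fell (median -0.81, against -0.08 for all genes; 5 and 15 without the intermediate libraries). Among all tested genes 35.2% rose and 43.5% fell. Crh fell to 3.24 ± 0.933 CPM (-2.62, limma adjusted p = 1.3e-06), Uts2 to 129 ± 5.78 and Adcyap1, the PACAP precursor, from 27.2 ± 2.26 to 7.93 ± 1.2 CPM. Nts rose to 110 ± 9.74 CPM (1.10, limma adjusted p = 1.5e-08). From P10 to adult 6 rose and 9 fell (median -0.05, against -0.16 for all genes; 5 and 5 without the intermediate libraries). At this last step 23.6% of all tested genes rose and 44.3% fell. Uts2 rose again to 473 ± 42.4 CPM (1.86, limma adjusted p = 9.1e-11) and Ucn (urocortin) from 10.4 ± 0.590 to 27.2 ± 2.34, while Pnoc, the nociceptin precursor, fell from 70.8 ± 3.91 to 31.1 ± 1.79 CPM.

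Genes of peptide processing and dense-core vesicles (18 of 18 tested) had 5 higher and 8 lower, then 7 higher and 9 lower, then 9 higher and 6 lower over the 3 steps (medians -0.14, -0.25 and 0.16; 4 and 6, 6 and 9, and 7 and 5 without the intermediate libraries). Of all tested genes 27.9%, 35.2% and 23.6% were called higher and 44.4%, 43.5% and 44.3% lower (medians -0.13, -0.08 and -0.16). The counts of this list are a description. Pcsk1n, which encodes an inhibitor of the processing convertase PC1, went from 279 ± 19.1 to 735 ± 11 and back to 329 ± 37.7 CPM, and the granin Scg2 from 142 ± 18.3 to 227 ± 6.11, 66.6 ± 6.32 and 127 ± 2.37. Pam, the enzyme that amidates peptides such as CGRP and substance P, fell from 34.7 ± 6.09 to 14.6 ± 2.93 CPM and rose to 38.9 ± 2.85 at P10 (limma adjusted p = 9.5e-06 and 1.9e-06). Cpe, the carboxypeptidase that trims the cut peptides, fell from 554 ± 11.3 at P10 to 371 ± 44.5 CPM in the adult (limma adjusted p = 2.1e-06).

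Of 28 receptor genes 19 were tested, with 6 higher and 7 lower, 6 higher and 9 lower, and 2 higher and 14 lower (medians -0.05, -0.23 and -0.45; 5 and 5, 6 and 8, and 2 and 10 without the intermediate libraries). Among all tested genes 27.9%, 35.2% and 23.6% were called higher and 44.4%, 43.5% and 44.3% lower (medians -0.13, -0.08 and -0.16). The receptor counts are a description. Ramp1, the partner protein that makes the CGRP receptor, rose from 40.1 ± 10.6 to 112 ± 13.4 CPM at birth (limma adjusted p = 6.0e-06). Tacr1, the substance P receptor, fell from 7.89 ± 0.349 to 5.31 ± 0.0739 and rose to 14.1 ± 0.306 CPM at P10 (limma adjusted p = 4.4e-06 and 5.8e-11). Vipr2, a VIP receptor, rose from 2.30 ± 0.171 to 12 ± 3.39 and 18.8 ± 0.415 CPM, and the PACAP receptor Adcyap1r1 fell from 64.0 ± 1.30 at P0.5 to 25.2 ± 0.929 and 13.5 ± 1.91 CPM.

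**Figure D3:**
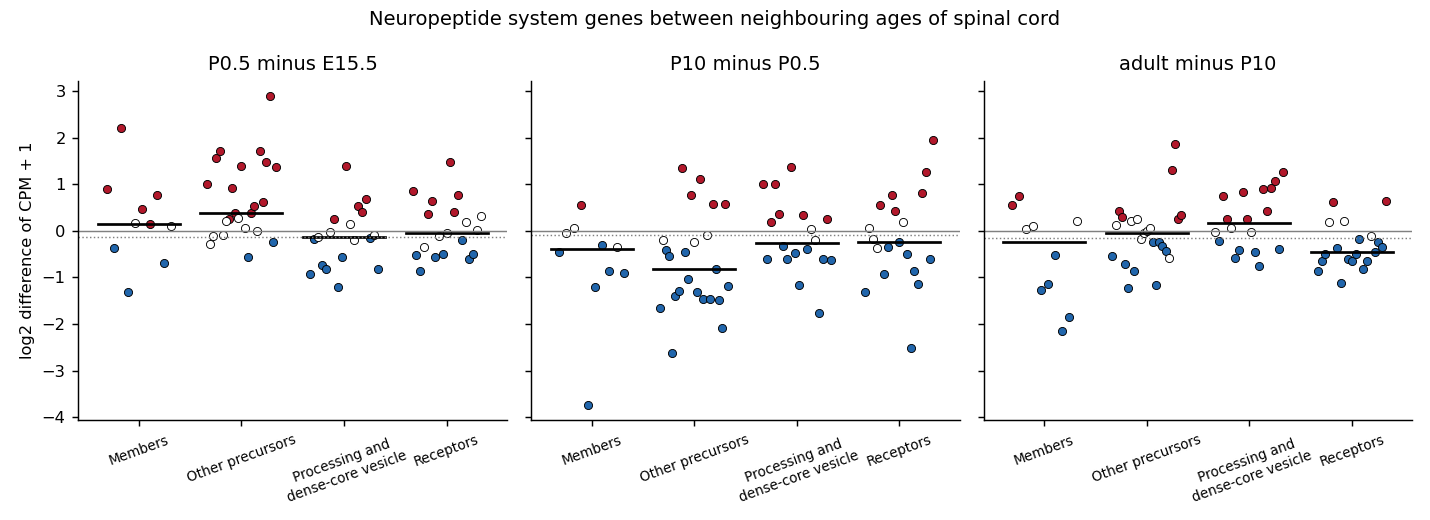
Log2 differences between neighbouring ages of spinal cord for the members, the other precursors, processing and dense-core vesicle genes and receptors, 1 point per tested gene; red rose, blue fell, white was not past the threshold, black bars are list medians and the dotted line is the median of all tested genes. The other precursors have a median of 0.39 in the first step and -0.81 in the second.

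Markers of other cell types were summed in the spinal cord libraries by age, with no test. The spinal interneuron list (12 of 12 genes in the table) summed to 78.9 to 91.6 CPM at E15.5, 113 to 118 at P0.5, 71.0 to 81.3 at P10 and 43.6 to 59.5 in the adult. The list was highest at P0.5 and lowest in the adult, as were Penk, Pdyn, Npy and Sst. Cck went another way, with its lowest mean at E15.5 (31.5 CPM) and its highest in the adult (159 CPM). Not every gene of the list followed its sum: Slc17a6 was highest at E15.5 (28.8 CPM), and Slc6a5 was lowest there (1.82 CPM). The highest and lowest ages were not particular to the interneuron list. The astrocyte list (8 genes) had mean sums of 492, 772, 659.5 and 447 CPM from E15.5 to adult, and its E15.5 and adult libraries overlapped. The sensory neuron list (10 genes) summed to 34.2 to 35.6, 12.5 to 17.0, 5.97 to 49.1 and 3.36 to 4.12 CPM, with Trpv1 listed at 0 in the 3 adult libraries and Scn10a at most at 0.516 CPM in any spinal cord library. The high P10 value was replicate 2. Over P10 replicates 1 to 3 Avil had 0.918, 35.8 and 17.3 CPM, Tac1 37.5, 49.9 and 44.1, and Calcb 463, 543 and 506. These were highest in replicate 2, as were Npy (38.1, 47.9 and 44.1 CPM) and Sst (679, 784 and 750 CPM). Calca, at 850, 737 and 808 CPM, was lowest there, as were Penk and Gal, while Pdyn, Vip and Cck were highest in replicate 1. The oligodendrocyte list summed to 104 to 137, 862 to 933, 15330 to 20660 and 2430 to 4069 CPM, and the motor neuron and cholinergic list to 2434 to 2611, 1620 to 1827, 1957 to 2088 and 1941 to 1998 CPM. The part of these cells in the changes of the 10 genes was not tested.

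**Figure D4:**
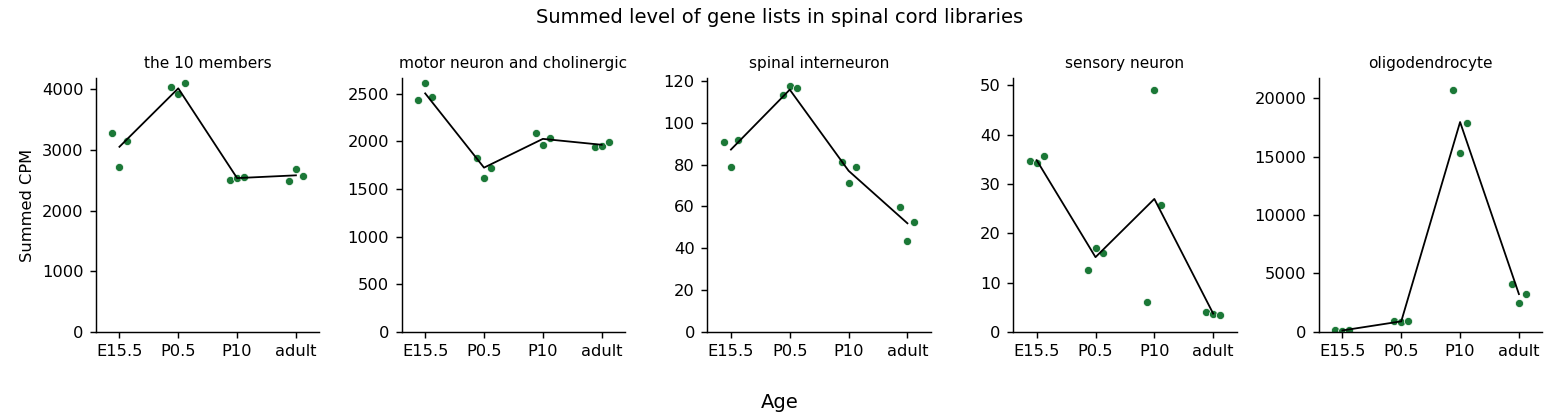
Summed CPM of the 10 genes and of 4 marker lists in each spinal cord library by age, on linear axes from 0 with lines through the means. The members peak at P0.5, as does the spinal interneuron list, while the oligodendrocyte list peaks at P10. The astrocyte list, which is not drawn, also had its highest mean at P0.5 (772 CPM).

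In diaphragm the same genes were low or listed at 0 at most ages, with Penk the exception. The Cre-negative libraries give the background of the purification. Many genes were listed at 0 in diaphragm libraries (15.4% to 46.2% of genes, against 8.3% to 12.9% in spinal cord), and Tbp, a transcription factor of every cell, was itself listed at 0 in Cre-negative P0.5 replicate 1. A value of 0 is therefore given as listed, with each library's value and no fold. Calcb, Tac1, Pdyn and Vip did not reach 1 CPM in 3 of the 24 libraries and were not tested, which left 6 of the 10 genes. Pdyn was listed at 0 in 22, Vip in 20 and Tac1 in 17 of the 24 libraries. Vip was seen at E15.5 alone, at 0, 2.71 and 3.34 CPM in Cre-negative and 0.551, 0 and 0.267 CPM in Cre-positive libraries, a difference of -1.01 when no filter was set (limma adjusted p = 0.044). Tac1 reached 1 CPM only in Cre-negative P10 libraries, at 1.58, 0 and 1.05 CPM (-0.80 with no filter, limma adjusted p = 0.043). Calcb exceeded 1 CPM in 1 library, Cre-positive E15.5 replicate 2, at 1.84 CPM.

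Penk at E15.5 had 143, 124 and 115 CPM in Cre-negative and 187, 124 and 179 in Cre-positive diaphragm, and 148, 51.2 and 74.5 against 89.4, 88.5 and 87.7 at P0.5. Both ages overlapped (log2 differences 0.34 and 0.10, limma adjusted p = 0.54 and 0.86). At P10 it had 24.9, 18 and 21.1 CPM in Cre-negative and 7.64, 11.5 and 9.95 in Cre-positive libraries, without overlap (-1.07 ± 0.31, limma adjusted p = 0.10, and 0.024 in a fit of only these 2 groups). The P10 values of both genotypes lay below all values of E15.5 and P0.5.

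In the adult Penk had 0.045, 0 and 0 CPM in Cre-negative diaphragm, 4 reads in all, and 8.34, 3.56 and 5.59 CPM in Cre-positive diaphragm, which are 786, 381 and 570 reads. The groups did not overlap, and the difference was 2.69 ± 0.31 (limma adjusted p = 9.7e-06). Without the intermediate libraries it was 2.71 and past the threshold no more (limma adjusted p = 0.062), while the call held with each single library left out. Pnmt, a chromaffin enzyme on the sympathetic and chromaffin list, had 12.1, 3.03 and 6.19 CPM in the same Cre-positive libraries and 0 in the Cre-negative ones. That list (8 genes) summed to 14.9, 3.98 and 7.47 against 2.60, 0 and 4.56 CPM, with Th and Dbh listed at 0 in all 6 adult libraries. The hepatocyte list summed to 461, 217 and 269 in Cre-positive against 22.6, 24.5 and 19.8 CPM in Cre-negative libraries. The part of either list in the Penk difference was not tested. The adult pancreas lists were listed at 0, and Chat had 0, 0 and 2 reads in the Cre-positive libraries.

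**Figure D5:**
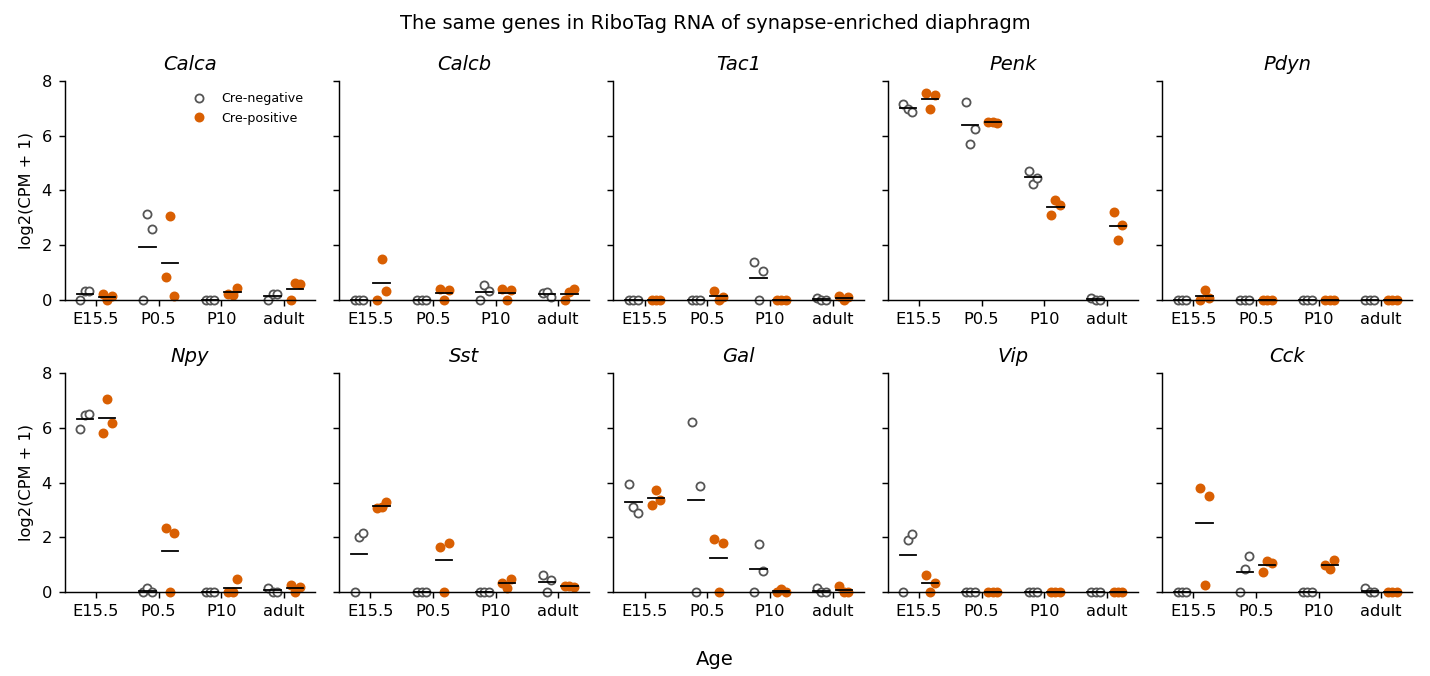
log2(CPM + 1) of the 10 genes in diaphragm by age; open points are the 3 Cre-negative and filled points the 3 Cre-positive libraries, and bars are group means. The mean of Penk is lower at each later age in both genotypes, with no test between ages, and in the adult Penk is seen at 3.56 to 8.34 CPM in the Cre-positive libraries and at up to 0.045 CPM in the Cre-negative ones.

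Npy was high in diaphragm at E15.5, at 61.6, 87.0 and 90.2 CPM in Cre-negative and 55.7, 131 and 70.9 in Cre-positive libraries, and the groups overlapped (0.03, limma adjusted p = 0.98). The sympathetic and chromaffin list summed to 29.8, 90.6 and 109 against 48.5, 132 and 65.7 CPM in these libraries. Cre-positive replicate 2 was highest in both, with Th at 38.0 and Dbh at 12.8 CPM, and Npy is known as a transmitter of sympathetic nerves. The part of these cells in the Npy level was not tested.

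At P0.5 Npy was at 0, 0.101 and 0 CPM in Cre-negative and 4.09, 0 and 3.42 in Cre-positive diaphragm (1.45, limma adjusted p = 0.019, and 0.49 without the intermediate libraries). Replicates 1 and 3, which carry these reads, stand close to each other: the intermediate replicate 1 was fitted with a weight of 0.965 on replicate 3. The call was lost without either of them or without Cre-negative replicate 3 (limma adjusted p = 0.13, 0.10 and 0.050), and with quantile normalization (0.052), where Sst was called in its place (0.043). Th followed the same libraries, at 0, 0.025 and 0 against 2.23, 0 and 1.96 CPM, but its list did not. The sympathetic and chromaffin list summed to 0.103, 7.37 and 5.88 in Cre-negative and 6.61, 11.2 and 5.31 CPM in Cre-positive libraries. Pnmt had 0, 0.655 and 0.273 against 2.23, 11.2 and 1.26 CPM. Both were highest in Cre-positive replicate 2, where Npy was listed at 0. The hepatocyte list at P0.5 summed to 169.5, 160.7 and 160 CPM in Cre-negative and 2201, 13270 and 1661 CPM in Cre-positive libraries. The part of either list in the Npy difference was not tested. In the P10 and adult libraries Npy had at most 0.390 and 0.180 CPM.

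Sst and Cck were the 2 genes called at E15.5. Sst had 0, 2.98 and 3.48 CPM in Cre-negative and 7.36, 7.52 and 8.72 in Cre-positive diaphragm, without overlap (1.76 ± 0.45, limma adjusted p = 0.014). Cck was listed at 0 in the Cre-negative libraries and had 12.9, 0.189 and 10.4 CPM in the Cre-positive ones (2.52 ± 0.56, limma adjusted p = 0.0059). Both calls were lost without the intermediate libraries (limma adjusted p = 0.49 and 0.55), and that of Sst also without Cre-negative replicate 1 (limma adjusted p = 0.062) or Cre-positive replicate 3 (0.058). The Sst call was lost too with a pseudocount of 0.1 (limma adjusted p = 0.13), in a fit of only these 2 groups (0.11), with edgeR (adjusted p = 0.62) and with DESeq2 (0.58). The pancreas endocrine list, since somatostatin is also an islet hormone, summed to 30.7, 108 and 139 against 147, 0 and 123 CPM. The enteroendocrine and gut list summed to 11.4, 11.7 and 11.2 against 22.4, 11.5 and 19.7 CPM. The part of either list in the Sst and Cck differences was not tested.

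At P0.5 and P10 Sst and Cck had at most 2.47 CPM in a diaphragm library. At P0.5 Sst had 0, 0 and 0 against 2.15, 0 and 2.47 CPM (1.15, limma adjusted p = 0.059, and 0.030 with RLE size factors), and edgeR and DESeq2 on recovered reads called it (adjusted p = 0.013 and 4.7e-05). Cck had 0, 0.781 and 1.48 against 0.669, 1.2 and 1.08 CPM (limma adjusted p = 0.77). At P10 Cck was listed at 0 in Cre-negative and had 0.966, 0.787 and 1.25 CPM in Cre-positive libraries (0.99, limma adjusted p = 0.48).

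Gal varied widely between libraries of 1 group. At E15.5 it had 14.3, 7.58 and 6.30 against 7.97, 12.3 and 9.35 CPM, and at P0.5 73.1, 0 and 13.5 against 2.84, 0 and 2.46 CPM. The P0.5 difference was -2.11 ± 0.90 (limma adjusted p = 0.086), and without Cre-negative replicate 2 it was -3.79 (limma adjusted p = 1.8e-04). Calca, abundant in spinal cord, had 0, 0.249 and 0.25 against 0.146, 0 and 0.111 CPM at E15.5 and 0, 7.81 and 5.08 against 0.781, 7.36 and 0.091 CPM at P0.5. Without Cre-negative replicate 1 the P0.5 difference of Calca was -1.53 (limma adjusted p = 0.027, and 0.51 with it). In the adult, Calca had at most 0.542 CPM in any diaphragm library.

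Of the 6 tested genes, Cre-positive diaphragm at E15.5 had 2 higher (Sst and Cck), where 11% of 13853 genes were called, 4.88% higher and 6.11% lower. It had 1 higher at P0.5 (Npy; 27.7% of genes called, 12.1% higher and 15.7% lower), 0 at P10 (1.45% called, 0.419% higher and 1.03% lower) and 1 in the adult (Penk; 12% called, 3.06% higher and 8.92% lower). None of the 6 was lower in this fit. At P10 limma had 1 gene, Penk, at an unadjusted p under 0.05, edgeR called 0 (6 at an unadjusted p under 0.05) and DESeq2 called 2 (5 unadjusted). Without the intermediate libraries limma called 0 of 5 tested members at every age, where 0.0527%, 0.813%, 0% and 0.105% of all genes were called by the same adjusted p. At an unadjusted p under 0.05 it then had 2, 0, 0 and 1 of the 5. With RLE size factors the all-gene median went from -0.06, -0.01, -0.13 and -0.12 to 0.06, 0.20, 0.00 and 0.03, and the share of higher among called genes from 44.4%, 43.5%, 28.9% and 25.6% to 60.6%, 66.6%, 49.0% and 54.6%.

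Of the wider peptide system in diaphragm, Pam, at E15.5, had 61.2 ± 13.6 CPM with Cre and 326 ± 156 CPM without (-2.31, limma adjusted p = 0.011, and 0.49 without the intermediate libraries). Calcrl, the core of the CGRP receptor, had 3.08 ± 2.37 against 15.3 ± 2.82 CPM at P0.5 (-2.13, limma adjusted p = 7.9e-04, and 0.18 without them) and 2.87 ± 1.38 against 9.94 ± 4.88 in the adult (limma adjusted p = 0.024, and 0.73). Of the 13, 12 and 10 genes tested on the lists of other precursors, processing and receptors, 2 were higher and 2 lower at E15.5, where 11% of all genes were called. The counts were 4 and 5 at P0.5 (27.7% of all genes called), 0 and 0 at P10 (1.45%), with 1 and 1 for adult libraries (12%), and 0 in each without the intermediate libraries.

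Set against spinal cord of the same age, Cre-positive diaphragm had lower levels of 9 of the 10 genes at E15.5 and of all 10 at P0.5, P10 and in the adult, where 52.1%, 56.9%, 53.1% and 55.3% of 14831 genes were lower (73.6%, 75.3%, 73% and 74.8% called in either direction). Higher were 21.5%, 18.4%, 19.9% and 19.5% of genes and 0 members. Each of the 10 genes passed the filter on low values through spinal cord. Calcb, Tac1, Pdyn and Vip had at most 1.84, 0.254, 0.283 and 0.551 CPM in any Cre-positive diaphragm library. Calca reached 1 CPM there in P0.5 replicate 2 alone, at 7.36 CPM. These genes could therefore only come out lower, and the counts of members are a description. Without the intermediate libraries the counts of members were again 9, 10, 10 and 10, against 57.6%, 61.7%, 57.9% and 62.5% of genes called. The median difference of the 10 genes was -3.65, -5.95, -5.88 and -5.31 from E15.5 to adult, against -0.58, -0.80, -0.63 and -0.72 for all genes. Calca was at 596 to 1173 CPM in spinal cord by age and at 0.086 to 2.74 CPM in Cre-positive diaphragm. Its differences were -9.08, -8.75, -9.37 and -9.79, given as a description since it could only come out lower. The skeletal muscle list (8 genes) summed to 20580 to 67250 CPM in Cre-positive diaphragm and to 6.44 to 4361 CPM in spinal cord, and its part in these differences was not tested. With RLE size factors the all-gene median was -0.11, -0.21, -0.20 and -0.23 and the share of higher among called genes went from 29.2%, 24.4%, 27.3% and 26.1% to 45.2%, 41.5%, 41.4% and 41.6%.

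Penk was the member not called lower at E15.5. It was at 164 ± 34.5 CPM in Cre-positive diaphragm and 176 ± 12.1 in spinal cord (SD, n = 3; -0.12 ± 0.19, limma adjusted p = 0.57), and with RLE size factors the difference turned to 0.49 (limma adjusted p = 0.013). At P0.5 it was at 88.5 ± 0.886 against 194 ± 0.838 CPM (-1.12, limma adjusted p = 2.3e-05, but -0.31 and 0.096 with RLE size factors). By P10 and in the adult the differences were -3.89 and -4.07 (limma adjusted p = 2.5e-13 and 1.0e-13). Of the other 9 genes, Npy and Cck had the differences nearest 0 at E15.5 after Vip, at -2.69 and -2.49, and edgeR (adjusted p = 0.086 and 0.094) and DESeq2 (adjusted p = 0.23 and 0.053) on recovered reads did not call them.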

How the data were processed

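The deposited table holds CPM (counts scaled to 1000000 per library) for 18845 genes in 36 libraries, made by the authors; the submitters' processing notes list RSEM 1.2.12, mm10 and Bowtie2 2.2.5, with no order or settings. RNA was extracted with a micro-scale column kit and libraries followed the sequencing centre's protocol, per the labels. Dividing each column by the step of 1 read gave values within 0.1 of a whole number for 100% of values, so whole reads were recovered; in Cre-positive P0.5 replicate 3 that step is near a power of 10, so its depth is an estimate.

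Log2(CPM + 1) was fitted with limma 3.58.1 (trend, robust; R 4.3.3) for genes reaching 1 CPM in 3 or more of the libraries fitted, with Benjamini-Hochberg adjustment over all genes tested and calls at an adjusted p under 0.05. These differences understate changes of low genes. Separate fits covered spinal cord (12 libraries, 3 comparisons), diaphragm (24 libraries, 4 comparisons) and Cre-positive diaphragm with spinal cord (24 libraries, 4 comparisons). The fit was tested on simulated data. The change of the Cre difference between ages was an added test. Alternatives were a pseudocount of 0.1, no filter, RLE size factors, quantile normalization, edgeR 4.0.16 and DESeq2 1.42.0 on recovered reads, only the compared groups, a replicate block, each library left out, and no intermediate libraries.

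The members and gene lists were chosen with earlier results of these data known. Every member is named; per list and comparison, up to 3 called genes per direction with the largest difference and a mean of at least 5 CPM may be named, and for similar profiles the 3 genes with the highest r (for Gal only the first; the rest are not reported here). Tbp, Th, Dbh, Pnmt and Avil were named after their values were seen. Transcript lengths were not used here, so levels of different genes are not compared.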

Additional observations from a re-analysis of the deposited data

Results flagged for a closer look

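The Cre difference of Penk in diaphragm changed between P10 and adult. It was -1.07 at P10, where the Cre-negative libraries were higher (24.9, 18 and 21.1 against 7.64, 11.5 and 9.95 CPM), and 2.69 in the adult, where the Cre-positive libraries were higher (8.34, 3.56 and 5.59 against 0.045, 0 and 0 CPM). The change of 3.76 ± 0.44 was tested within the diaphragm fit (log2 scale, limma adjusted p = 4.4e-05, where 4.21% of 13853 genes were called), and each of the 3 libraries of a group lay on its group's side at both ages. Without the intermediate libraries the limma adjusted p was 0.41. Ages were not compared by a test within diaphragm; between P10 and adult the Cre-negative libraries did not overlap, and the Cre-positive ones did (adult replicate 1 at 8.34 CPM, P10 replicate 1 at 7.64). None of the other 5 tested genes had such a change between neighbouring ages past the threshold; the lowest limma adjusted p among them was 0.073, for Cck from E15.5 to P0.5.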

How the results depend on the processing

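Counts of called members in the spinal cord steps (8, 7 and 7) stayed within 1.5 times under the alternatives run, with ranges of 7 to 8, 6 to 8 and 7 to 8 when each library was left out. In the tissue comparison the counts of 9, 10, 10 and 10 stayed within 1.5 times too. The Penk difference between tissues at E15.5 turned from -0.12 to 0.49 with RLE size factors, 0.60 with quantile normalization, 0.59 with edgeR and 0.50 with DESeq2. In the Cre comparisons the counts were small and moved. At E15.5 the 2 became 3 without the filter (Vip added, lower), 1 with a pseudocount of 0.1, with edgeR and with DESeq2 (Sst lost in each), 0 in a fit of only the compared groups and without the intermediate libraries, and 1 to 2 with a library left out. At P0.5 the 1 became 2 with RLE size factors, edgeR and DESeq2, 0 in a fit of only the compared groups and without the intermediate libraries, and 0 to 2 with a library left out; with quantile normalization it stayed 1, with Sst in place of Npy. Fits of only the compared groups did not test Cck at E15.5 or Npy at P0.5, which reach 1 CPM in 2 of those libraries. At P10 the 0 became 1 without the filter (Tac1, lower), 1 in a fit of only the compared groups (Penk, lower) and 2 with DESeq2 (Sst and Cck, higher). In the adult the 1 became 0 without the intermediate libraries. The cause was not tested. With the replicate block the counts were 8, 7 and 7 in spinal cord, 2, 1, 0 and 1 between genotypes and 9, 10, 10 and 10 between tissues. Deviations of same-numbered libraries had a median correlation of -0.02 in spinal cord, where 2 of 18 pairs were over 0.1. These pairs join libraries of different ages, so they cannot show whether tissues of 1 animal share a number. Pairing of diaphragm and spinal cord libraries of the same age was not tested on its own. Single calls in spinal cord also moved. Tac1 from P0.5 to P10 was called in a fit of only those groups (limma adjusted p = 0.026). From P10 to adult Vip and Cck were called with edgeR (adjusted p = 0.042 and 0.048). At that step DESeq2 called Gal, Vip and Cck (adjusted p = 0.048, 0.036 and 0.034). Vip was called there too with quantile normalization (limma adjusted p = 0.0073) and without adult replicate 1 (0.0050). The call of Calca from P0.5 to P10 was lost without P0.5 replicate 3 (limma adjusted p = 0.052) or P10 replicate 2 (0.055). A value under 0.1 CPM rests on a few reads, and the part of depth in the results above that level was not tested.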
